A study of Mus musculus with 6 samples.

Results

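Elastic fibre and microfibril genes were followed by RNA sequencing in transformed mouse embryonic fibroblasts that carried either a guide RNA against the p53 gene or a non-targeting guide. The 9 genes were chosen by symbol: elastin (Eln), the fibrillins Fbn1 and Fbn2, the fibulins Fbln1, Fbln2, Fbln5 and Efemp2, and the microfibril-associated glycoproteins Mfap2 and Mfap5. All 9 were found among the 23420 genes of the counts table. The fibroblasts were of a mixed 129/Sv-C57BL/6 background and had been transformed with E1A, an adenoviral oncogene, and HrasG12V, an activated Ras gene. They were grown in 5% oxygen for 24 h after plating, and each of 3 lines gave 1 sgp53 library and 1 sgNTC library. The sgp53(1) cells are labelled p53 null in lines 1 and 3 and functionally inactive in line 2, and the sgNTC cells are labelled p53 wild-type. Both groups carry both oncogenes, and the labels do not say whether a line was 1 clone or came from 1 embryo.

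Elastic fibres consist of a core of crosslinked elastin laid on a scaffold of microfibrils, whose backbone is fibrillin. Fibulins link the elastin core to the microfibrils and to the crosslinking enzymes of the lysyl oxidase family, and microfibrils also hold latent TGF-beta and BMP growth factors in the matrix. Fibroblasts and smooth muscle cells are the main makers of these proteins in connective tissue, and fibrillin microfibrils also occur without elastin.

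Total counts per library lay between 27503577 and 35860866. Trp53 itself stood at 71.1, 72.0 and 113 CPM (counts scaled to a common normalized library total) in sgp53 lines 1, 2 and 3, and at 206, 277 and 253 CPM in sgNTC lines 1, 2 and 3, and it fell (log2 fold change -1.52, SE 0.21, edgeR adjusted p = 0.0168). That call was lost without sgp53 line 1, sgp53 line 2 or sgNTC line 3 (edgeR adjusted p = 0.0679, 0.0507 and 0.0721), and without both libraries of line 1, 2 or 3 (0.0964, 0.112 and 0.0731). Without both libraries of line 1, 2 or 3, edgeR called 47, 64 and 19 of all genes, against 841 with every library. Of the fibroblast markers fixed for the check, all 7 were detected. Their summed level was 2689 to 3851 CPM in sgp53 libraries and 2820 to 3420 CPM in sgNTC libraries, most of it Vim. The log2 fold change was -0.22 for Vim and above 0 for the other 6, from 1.54 (Pdgfra) to 4.13 (Col3a1). The sgp53 library of line 3 was the highest in 6 of the 7, all but Vim; Dcn was at 8.35 CPM there and at or under 0.639 CPM in the other 5 libraries. Col3a1, a fibrillar collagen gene, had 167, 89.1 and 432 CPM in sgp53 lines 1, 2 and 3, and 22.9, 5.62 and 10.43 CPM in sgNTC lines 1, 2 and 3, and was the 1 called marker of these 7 (edgeR adjusted p = 0.0342). Endothelial and leukocyte markers were low, and most of the leukocyte sum was Cd68: their sums stayed at 1.67 to 1.84 and 3.83 to 4.25 CPM in sgp53 libraries, and at 1.96 to 2.65 and 8.90 to 10.5 CPM in sgNTC libraries, with Emr1 at 0 and Ptprc at or under 0.0683 CPM throughout. Cd68 was called lower in sgp53 cells (log2 fold change -1.32, edgeR adjusted p = 0.0152). Among the 5 smooth muscle markers, led by Acta2 and Tagln, the sum was 713 to 1094 CPM in sgp53 libraries and 24.9 to 104 CPM in sgNTC libraries. Acta2, Tagln and Cnn1 were called higher (log2 fold change 4.24, 3.76 and 4.11, edgeR adjusted p = 0.0173, 0.0165 and 0.00732). Over all tested genes 2.76% were called higher. Des went the other way from the rest. It had 0.649, 0.306 and 0.456 CPM in sgp53 lines 1, 2 and 3, and 1.08, 1.78 and 1.25 CPM in sgNTC lines 1, 2 and 3. Its log2 fold change was -1.54 (edgeR adjusted p = 0.0614). The 5 epithelial markers summed to 88.8 to 133 CPM in sgp53 libraries and 259 to 646 CPM in sgNTC libraries, most of it Krt18 in the sgNTC libraries. Krt18, the 1 called epithelial marker, was lower in sgp53 cells (log2 fold change -2.64, edgeR adjusted p = 0.0295). The part of these differences in the results on elastic fibre genes was not tested, and in bulk RNA fewer cells of a type and less RNA per cell cannot be told apart. The sgp53 library of line 3 also held 3338 CPM of the ribosomal RNA precursor Rn45s, against 636 to 864 CPM in the other 5 libraries.

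Promoter windows of RefSeq on GRCm38.p6, which is the mm10 assembly, are shown for the 2 genes that passed the test, Fbn1 and Fbln5, and for Fbln1, whose within-line differences had both signs. Each window runs from 250 bases before to 50 bases after an annotated start and is written 5′ to 3′ on the strand of the gene. Capitals mark the GC box GGGCGG on either strand, the only one of 6 searched motifs found in these windows.
Fbn1 (chr2:125506389-125506688, minus strand): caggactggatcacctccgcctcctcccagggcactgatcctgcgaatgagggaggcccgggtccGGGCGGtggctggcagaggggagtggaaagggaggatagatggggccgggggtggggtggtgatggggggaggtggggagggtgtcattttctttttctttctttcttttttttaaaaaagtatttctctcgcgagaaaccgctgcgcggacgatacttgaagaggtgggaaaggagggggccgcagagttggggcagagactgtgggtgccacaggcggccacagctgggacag
Fbln5 (chr12:101819070-101819369, minus strand): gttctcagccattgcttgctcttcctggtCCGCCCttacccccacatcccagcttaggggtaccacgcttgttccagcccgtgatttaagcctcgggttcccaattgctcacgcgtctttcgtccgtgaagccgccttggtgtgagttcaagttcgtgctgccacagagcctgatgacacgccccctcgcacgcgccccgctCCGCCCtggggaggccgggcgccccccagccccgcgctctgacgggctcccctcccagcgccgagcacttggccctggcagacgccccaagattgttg
Fbln1 (chr15:85205699-85205998, plus strand): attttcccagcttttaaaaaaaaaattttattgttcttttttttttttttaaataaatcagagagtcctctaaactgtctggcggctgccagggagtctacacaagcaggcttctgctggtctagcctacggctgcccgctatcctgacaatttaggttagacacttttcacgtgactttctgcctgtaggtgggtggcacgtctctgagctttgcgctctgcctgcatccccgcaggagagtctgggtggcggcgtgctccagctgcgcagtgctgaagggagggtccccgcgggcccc

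Windows were given for 6 of the 9 genes, 11 windows in all; none was used for Eln, Fbn2 and Mfap5. GC boxes lay in 8 of the 11 windows, and 35.7% of all 32851 windows held one. Some windows of the same gene overlap and hold the same boxes, as 2 Efemp2 windows do, so the 8 are not separate. The Fbn1 window had 1 box, the Fbln5 window shown had 2, and the Fbln1 window shown had 0, although a second Fbln1 window, which overlaps it, had 2. The TEAD site CATTCC was present in 1 window, of Mfap2, and in 14.7% of all windows. The p53 half-site (by its consensus), the AP-1 site TGANTCA, the SMAD site GTCTAGAC and the TATA box TATAAA were not in any of the 11 windows; these letters occurred in 8.36%, 7.81%, 0.213% and 13.6% of all windows. Both strands were searched, and the capitals in the sequences do not overlap.

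Of the 9 genes, 7 had enough counts to be tested and 2 did not. Fbn1 and Fbln5 were higher in sgp53 cells at an adjusted p under 0.05 (edgeR, quasi-likelihood test with Benjamini-Hochberg adjustment over 13044 genes) and 0 of the 7 were lower. Over all tested genes 2.76% were called higher, 360 genes, and 3.69% were called lower, 481 genes, 6.45% in all; with library totals as the only scaling these counts were 296 and 612. The median log2 fold change of the 7 was 1.32, beside -0.01 over all tested genes, and the 7 had at least 36 counts in each library. All 7 fitted fold changes were above 0, as were 48.5% of those of all tested genes. In 4 of the 7 (Fbn1, Fbn2, Fbln5 and Mfap2) every sgp53 library was above every sgNTC library, which held for 17.8% of tested genes. The genes were chosen with earlier results of these data known, so these shares describe them and test nothing.

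**Figure D1:**
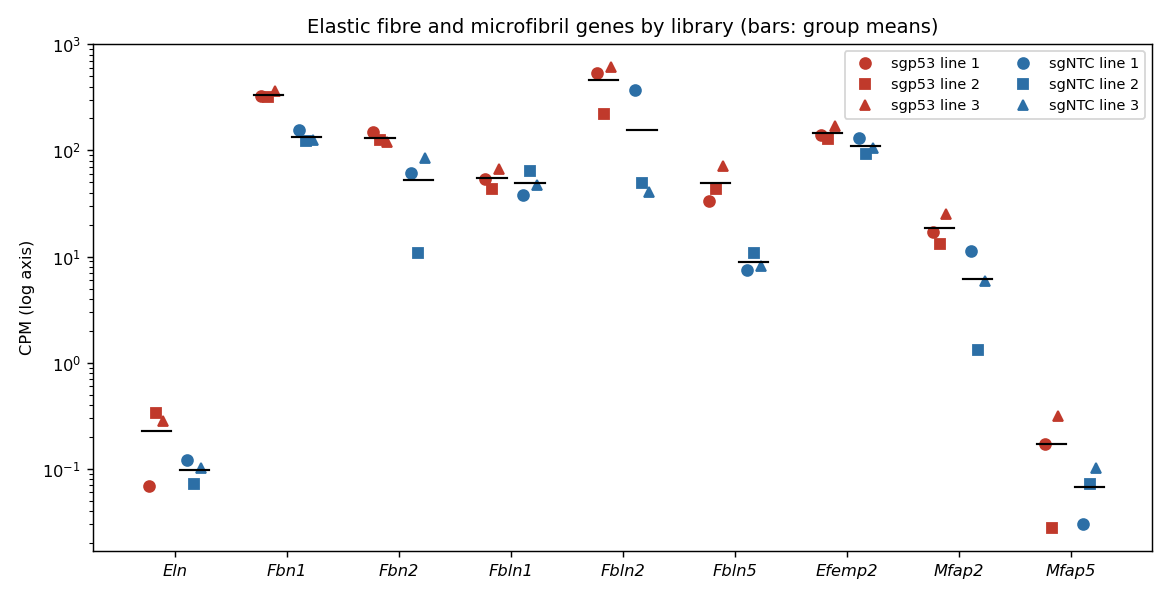
CPM (log axis) of the 9 genes in each library, with sgp53 in red left of sgNTC in blue, a marker shape for each line and a black bar at each group mean. The sgp53 and sgNTC points are apart for Fbn1, Fbn2, Fbln5 and Mfap2, the sgNTC points of Fbn2, Fbln2 and Mfap2 are spread widely, and Eln and Mfap5 lie under 1 CPM in every library.

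Elastin RNA was almost absent. Eln (chromosome 5, 134702595 to 134747368) had 2, 12 and 8 counts in sgp53 lines 1, 2 and 3, and 4, 2 and 3 counts in sgNTC lines 1, 2 and 3. These counts are 0.0683, 0.3335 and 0.2808 CPM in the sgp53 libraries and 0.120, 0.0725 and 0.102 CPM in the sgNTC libraries. The groups overlapped, because the sgp53 library of line 1 had the lowest value of all 6. Summed over the groups, 22 counts in sgp53 against 9 in sgNTC gave a ratio of 2.36 after scaling to library size (95% exact interval 1.04 to 5.81, which covers counting error only and not the spread between lines). The gene did not reach the count filter and was not tested; its exons share 267 bases with the antisense gene Gm30003.

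Fbn1 (chromosome 2, 125300594 to 125506485) encodes fibrillin-1, the main structural protein of microfibrils. It stood at 327, 316 and 362 CPM in sgp53 lines 1, 2 and 3, and at 155, 123 and 127 CPM in sgNTC lines 1, 2 and 3. The lowest sgp53 library was above the highest sgNTC library, and the spread within each group was small. The means were 335 ± 24.1 CPM in sgp53 and 135 ± 17.5 CPM in sgNTC (SD, n = 3 each), so Fbn1 rose 2.48-fold (edgeR adjusted p = 0.00344; 1.31 ± 0.11 on the log2 scale, SE). The differences within lines 1, 2 and 3 were 1.08, 1.36 and 1.51 on the log2 scale. Without the sgp53 library of line 3 the value was 1.25 (edgeR adjusted p = 0.0161). Without both libraries of line 2 or of line 3 the adjusted p was 0.0512 and 0.0827 (edgeR), at log2 fold changes of 1.30 and 1.21. These fits called 64 and 19 of all genes, against 841 with every library. The exons of Fbn1 share 2442 bases with those of Gm9913 on the opposite strand, and without a stated strand setting their reads cannot be told apart.

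Fbn2 (chromosome 18, 58008623 to 58210572) encodes fibrillin-2, which microfibrils hold mainly in embryonic and early postnatal tissue. Its level was 149, 125 and 120 CPM in sgp53 lines 1, 2 and 3 (mean 131 ± 15.8, SD, n = 3), and 61.1, 10.8 and 85.3 CPM in sgNTC lines 1, 2 and 3 (mean 52.4 ± 38.0, SD, n = 3). The groups did not overlap, yet the sgNTC libraries ranged widely, with line 2 far below the others. The log2 fold change of 1.32 was close to that of Fbn1, but its SE was 0.63, so Fbn2 did not pass the test (edgeR adjusted p = 0.223). Within lines 1, 2 and 3 the log2 difference was 1.29, 3.52 and 0.49. The sgp53 libraries lay close together, and the line-to-line variation was on the sgNTC side. Fbn2 exons share 129 bases with those of Gm26507 on the opposite strand, where reads cannot be told apart either.

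Mfap2 (chromosome 4, 141010424 to 141015976) encodes MAGP-1, a small glycoprotein that binds fibrillin and sits along microfibrils. It stood at 17.04, 13.15 and 25.4 CPM in sgp53 lines 1, 2 and 3, and at 11.3, 1.30 and 5.82 CPM in sgNTC lines 1, 2 and 3. No sgNTC library reached the lowest sgp53 library, and sgNTC line 2 was again the lowest, as for Fbn2. The means of 18.5 ± 6.29 CPM in sgp53 and 6.14 ± 5.01 CPM in sgNTC (SD, n = 3 each) gave a log2 fold change of 1.59 (SE 0.69), which did not pass (edgeR adjusted p = 0.185). The within-line log2 differences were 0.59, 3.27 and 2.11 in lines 1, 2 and 3. Mfap5 (chromosome 6, 122513584 to 122529290), which encodes the related MAGP-2, had 5, 1 and 9 counts in sgp53 lines 1, 2 and 3, and 1, 2 and 3 counts in sgNTC lines 1, 2 and 3. It was not tested, its groups overlapped, and the ratio of summed counts, scaled to library size, was 2.41 (95% exact interval 0.884 to 7.58, counting error only).

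Fbln5 (chromosome 12, 101746565 to 101819119) showed the largest fold change of the 7 tested genes. It encodes fibulin-5, which binds tropoelastin, integrins and the lysyl oxidase family and is needed for elastic fibre assembly in mice. Its level was 33.7, 43.0 and 71.5 CPM in sgp53 lines 1, 2 and 3, against 7.42, 10.9 and 8.13 CPM in sgNTC lines 1, 2 and 3. Every sgp53 library was above every sgNTC library, and sgp53 line 3 was the highest. The means were 49.4 ± 19.7 CPM in sgp53 and 8.82 ± 1.84 CPM in sgNTC (SD, n = 3 each), and Fbln5 rose 5.60-fold (edgeR adjusted p = 0.0130; 2.49 ± 0.31 on the log2 scale, SE). The log2 difference was 2.17, 1.97 and 3.13 within lines 1, 2 and 3, and 2.12 over the groups without sgp53 line 3 (edgeR adjusted p = 0.0178). Fbln5 missed the threshold when sgNTC line 3 was left out (edgeR adjusted p = 0.0705), and without both libraries of line 1, 2 or 3 (0.0714, 0.0918 and 0.0897), while the log2 fold change in these fits stayed between 2.07 and 2.77.

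Efemp2 (chromosome 19, 5473946 to 5482520) encodes fibulin-4, which brings lysyl oxidase to tropoelastin and is also needed for elastic fibres in mice. It stood at 140.0, 129 and 170.3 CPM in sgp53 lines 1, 2 and 3, against 129.9, 91.9 and 106 CPM in sgNTC lines 1, 2 and 3. The groups overlapped by a narrow margin, since sgp53 line 2 was just under sgNTC line 1. The means were 147 ± 21.2 CPM in sgp53 and 109 ± 19.2 CPM in sgNTC (SD, n = 3 each), and the log2 fold change of 0.42 (SE 0.15) did not pass (edgeR adjusted p = 0.132). DESeq2 called this gene (adjusted p = 0.0466), which made 3 calls among the 7 where 9.16% of all genes were called higher. Exons of Efemp2 and Mus81 share 173 bases on opposite strands, so reads there are of uncertain origin.

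Fbln2 (chromosome 6, 91212460 to 91272540) varied most among the sgNTC libraries. It encodes fibulin-2, which binds fibrillin-1 and other matrix proteins. Its level was 538, 222 and 611 CPM in sgp53 lines 1, 2 and 3, and 375, 49.4 and 40.7 CPM in sgNTC lines 1, 2 and 3. The groups overlapped: sgNTC line 1 was above sgp53 line 2, whereas sgNTC lines 2 and 3 were far below every other library. The means were 457 ± 207 CPM in sgp53 and 155 ± 190.4 CPM in sgNTC (SD, n = 3 each), with a log2 fold change of 1.56 (SE 0.91) that did not pass (edgeR adjusted p = 0.304). Within lines 1, 2 and 3 the log2 difference was 0.52, 2.17 and 3.90. Without sgNTC line 1 the log2 fold change was 3.34 (SE 0.49, edgeR adjusted p = 0.0305), and 1.90% of all genes were then called higher. Without both libraries of line 1 the log2 fold change was 3.21 and did not pass (edgeR adjusted p = 0.105). Fbln2 passed in 1 of 15 alternatives.

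Fbln1 (chromosome 15, 85205949 to 85286294), which encodes fibulin-1, a protein of basement membranes and elastic fibres, was at similar levels in both groups. It had 54.1, 43.2 and 67.1 CPM in sgp53 lines 1, 2 and 3, and 37.9, 63.8 and 47.2 CPM in sgNTC lines 1, 2 and 3. The groups overlapped, at means of 54.8 ± 12.0 CPM in sgp53 and 49.6 ± 13.1 CPM in sgNTC (SD, n = 3 each). The log2 fold change was 0.14 (SE 0.23, edgeR adjusted p = 0.713). The within-line log2 differences had both signs, at 0.51 in line 1, -0.56 in line 2 and 0.51 in line 3. The other 6 tested genes had a difference above 0 in all 3 lines, as did 25.2% of all tested genes.

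**Figure D2:**
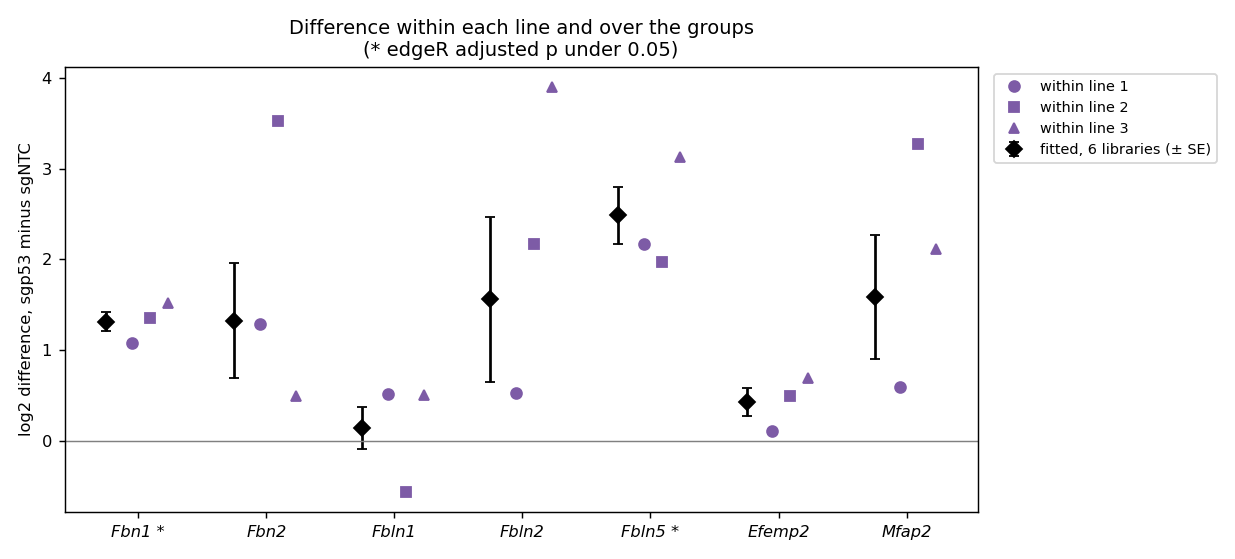
Log2 difference of sgp53 minus sgNTC for the 7 tested genes: black diamonds with bars are the fitted fold changes ± SE over 6 libraries, and purple circles, squares and triangles are the differences within lines 1, 2 and 3. The 3 lines lie close to the fitted value for Fbn1 and at 1.97 or above for Fbln5, Fbn2 and Mfap2 are highest in line 2, Fbln2 is highest in line 3, and Fbln1 lies on both sides of 0.

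The lines differed in which genes moved most. The largest within-line log2 difference was that of Fbln5 in line 1 (2.17), of Fbn2 in line 2 (3.52) and of Fbln2 in line 3 (3.90). Over the 7 tested genes the median difference was 0.59, 1.97 and 1.51 in lines 1, 2 and 3, beside -0.01, 0.00 and -0.01 over all tested genes. These differences between lines in the response were not tested, since each line has 1 library per guide. A separate test, of whether levels differed between lines whichever the guide, called 0 of the 7 genes and 0 of all 13044 (0.0%); at an unadjusted p under 0.05 it had 0 of the 7 and 461 of all genes (3.53%). The smallest unadjusted p of the 7 was 0.0916 for Fbln2 (edgeR adjusted p = 0.968). With 2 residual degrees of freedom, this test does not show that levels were alike between lines. With each line as a block, Fbn1 and Fbln5 were again the 2 called genes of the 7 (edgeR adjusted p = 0.0178 and 0.0326), where 0.966% of all genes were called higher and 2.38% in either direction. Limma-voom also called 2 of the 7, with 2.18% of all genes called higher.

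Scaled by exon length, Fbln2 and Efemp2 had the highest mean levels in both groups. For Fbln2 in sgNTC this rested on line 1, at 58.8 CPM per kilobase, against 7.76 and 6.40 in lines 2 and 3, where Fbln1 (14.6 and 10.8) and Fbn1 (10.16 and 10.45) were above it. In CPM per kilobase of exon, the order of the sgp53 means was Fbln2 (71.8 ± 32.4), Efemp2 (38.7 ± 5.60), Fbn1 (27.6 ± 1.99), Mfap2 (15.3 ± 5.19), Fbln1 (12.5 ± 2.74), Fbn2 (9.94 ± 1.198), Fbln5 (7.14 ± 2.85), Mfap5 (0.0478 ± 0.0401) and Eln (0.0281 ± 0.0173; SD, n = 3 each). In sgNTC the order was Efemp2 (28.8 ± 5.07), Fbln2 (24.3 ± 29.9), Fbln1 (11.4 ± 3.00), Fbn1 (11.1 ± 1.44), Mfap2 (5.07 ± 4.13), Fbn2 (3.96 ± 2.87), Fbln5 (1.28 ± 0.266), Mfap5 (0.0190 ± 0.0100) and Eln (0.0121 ± 0.00297; SD, n = 3 each). Neighbours whose ranges of mean ± SD did not overlap were Efemp2 and Fbn1, Fbn1 and Mfap2, and Fbln5 and Mfap5 in sgp53, and Fbn1 and Mfap2, and Fbln5 and Mfap5 in sgNTC; all other neighbours overlapped. Exon length was the union over all annotated transcripts, 8098 bases for Eln and 1211 bases for Mfap2, so a gene with many retained introns is set too low. The 9 genes together reached 191, 132 and 227 CPM per kilobase in sgp53 lines 1, 2 and 3, and 129.6, 60.3 and 68.0 CPM per kilobase in sgNTC lines 1, 2 and 3.

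The make-up of this sum set sgNTC lines 2 and 3 apart from the other 4 libraries. Fbln2 held 44.2%, 26.5% and 42.3% of it in sgp53 lines 1, 2 and 3, and 45.4%, 12.9% and 9.40% in sgNTC lines 1, 2 and 3. Efemp2 held 19.3% to 26.0% in the sgp53 libraries, against 26.4%, 40.2% and 41.0% in sgNTC lines 1, 2 and 3. Fbn1 exceeded Fbn2 per kilobase in every library: the ratio was 2.39, 2.76 and 3.30 in sgp53 lines 1, 2 and 3, and 2.77, 12.4 and 1.62 in sgNTC lines 1, 2 and 3. The value of 12.4 in sgNTC line 2 follows its low Fbn2, and the other 5 ratios run from 1.62 to 3.30.

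**Figure D3:**
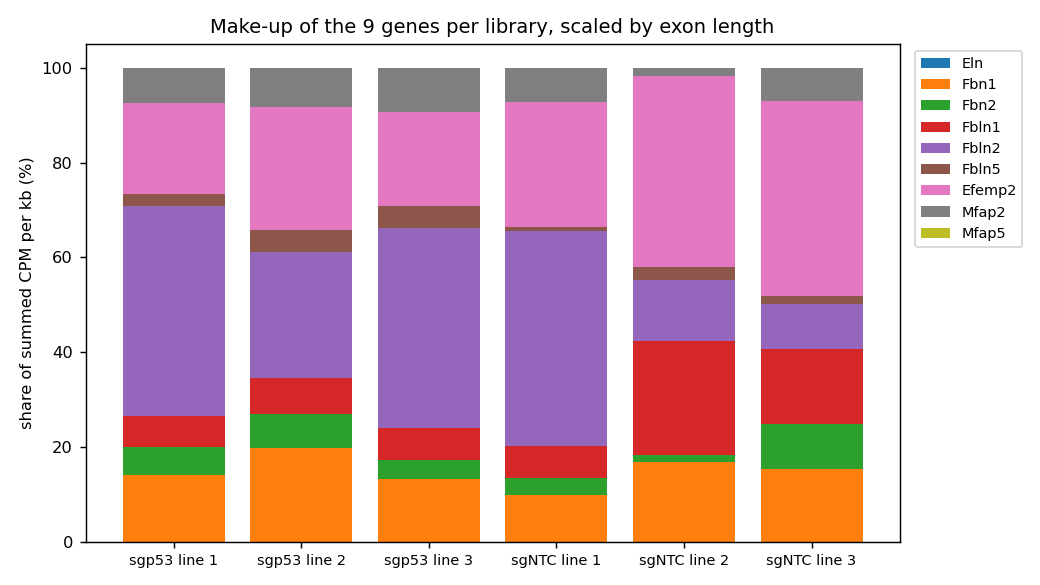
Share (%) of each of the 9 genes in their summed CPM per kilobase of exon, 1 bar per library with sgp53 lines left of sgNTC lines. Fbln2 takes 26.5% to 45.4% in the sgp53 libraries and sgNTC line 1 and 12.9% and 9.40% in sgNTC lines 2 and 3, where Efemp2 and Fbln1 take more.

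The tested genes most like Fbn1 were sought by the root mean square difference between their log2 CPM values over the 6 libraries, each centred on its own mean. The nearest were Nebl (0.095), Lhfp (0.11) and 5031414D18Rik (0.14). Lhfp averaged 52.4 ± 7.63 CPM in sgp53 and 20.3 ± 1.76 CPM in sgNTC (SD, n = 3 each). A higher level in sgp53 is part of what the search chose, so no test is given for these 3 genes. Nebl and 5031414D18Rik were under 1 CPM in every library. For Eln the same measure named Stat2 (0.16), Ube2l6 (0.22) and Cebpb (0.24), but its 2 to 12 counts per library are too few to read a pattern from.

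Other genes of elastic fibre assembly, turnover and signalling were described by 7 lists of 58 genes, of which 57 were in the table and 48 had enough counts. Of these 48, 7 were called higher and 1 lower, beside 2.76% and 3.69% of all tested genes, with a median log2 fold change of 0.48, beside -0.01. With the line as a block 4 were higher and 0 lower, where 0.966% of all genes were called higher and 2.38% in either direction. The lists were chosen with earlier results of these data known, so an excess over all genes is no test of them.

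The crosslinking enzymes, which oxidize lysines of elastin and collagen, had 2 of 5 genes called higher, beside 2.76% of all tested genes. Their median log2 fold change was 2.19. DESeq2 called 4 of the 5 higher, where it called 9.16% of all genes higher. Limma-voom called 1, where it called 2.18% of all genes higher. Lox had 125, 105 and 234 CPM in sgp53 lines 1, 2 and 3, and 5.50, 1.67 and 4.13 CPM in sgNTC lines 1, 2 and 3 (log2 fold change 5.34, SE 0.51, edgeR adjusted p = 0.00614). Loxl1, which acts on elastin together with fibulin-5 in mice, had 36.02, 30.9 and 97.8 CPM in sgp53 lines 1, 2 and 3, and 1.41, 0.870 and 3.01 CPM in sgNTC lines 1, 2 and 3 (log2 fold change 4.95, SE 0.66, edgeR adjusted p = 0.0153). In both genes the groups were far apart, and sgp53 line 3 was the highest library. Both calls held without any 1 library (edgeR adjusted p up to 0.0434 for Lox and 0.0484 for Loxl1), and limma-voom did not call Loxl1 (adjusted p = 0.0575). Without both libraries of a line, Lox missed the threshold for lines 1 and 3 (edgeR adjusted p = 0.0632 and 0.0873) and Loxl1 for lines 1 and 2 (0.109 and 0.0885).

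Of the 4 genes grouped by family name as latent TGF-beta binding proteins, Ltbp2 was called higher, beside 2.76% of all tested genes. The list's median was 0.84 on the log2 scale. Ltbp2 had 35.9, 25.01 and 125 CPM in sgp53 lines 1, 2 and 3, and 9.498, 3.73 and 4.94 CPM in sgNTC lines 1, 2 and 3 (log2 fold change 3.34, SE 0.72, edgeR adjusted p = 0.0477). Its call was lost with the block (edgeR adjusted p = 0.0767), without any 1 library (0.0531 to 0.159) and with limma-voom (adjusted p = 0.111). Without sgp53 line 3, the highest library, the log2 fold change was 2.33.

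None of the 7 tested genes among other fibulins, emilins and microfibril-associated proteins was called by edgeR or limma-voom; DESeq2 called Efemp1 higher, where it called 9.16% of all genes higher. At an unadjusted p under 0.05 edgeR had 1 of the 7, beside 29.0% of all tested genes. Their median log2 fold change was 0.54. Vcan, the proteoglycan versican that binds fibrillin and fibulins, had 111, 106 and 238 CPM in sgp53 lines 1, 2 and 3, and 129, 115 and 117 CPM in sgNTC lines 1, 2 and 3. Its sgp53 libraries of lines 1 and 2 were below every sgNTC library, and without sgp53 line 3 its log2 fold change was -0.15, against 0.33 with it, with no call in either fit. Emilin2, an elastin-interface glycoprotein, had 39.3, 35.8 and 116 CPM in sgp53 lines 1, 2 and 3, and 25.7, 29.3 and 33.7 CPM in sgNTC lines 1, 2 and 3. Its log2 fold change was 1.11, and 0.35 without sgp53 line 3, with no call in either fit.

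Of 9 tested processing and assembly factors 2 were called higher, beside 2.76% of all tested genes. The list median was -0.13 on the log2 scale. Fkbp10, an endoplasmic reticulum chaperone of tropoelastin and collagen, averaged 194 ± 11.4 CPM in sgp53 and 147 ± 7.19 CPM in sgNTC (SD, n = 3 each; log2 fold change 0.39, edgeR adjusted p = 0.0270). Adamtsl4, which binds fibrillin-1, averaged 7.79 ± 0.882 CPM in sgp53 and 3.78 ± 0.773 CPM in sgNTC (SD, n = 3 each; log2 fold change 1.04, edgeR adjusted p = 0.0380). Neither passed with the block (edgeR adjusted p = 0.0731 and 0.0801). Fkbp10 kept its call only without sgp53 line 2 and Adamtsl4 only without sgNTC line 1; without any other 1 library the adjusted p was 0.0534 to 0.0977 and 0.0751 to 0.122.

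Among 5 tested proteases that degrade elastin, edgeR and limma-voom called 0, with a list median of 0.25 on the log2 scale. DESeq2 called Mmp9, the gelatinase B gene, higher (9.16% of all genes). Mmp9 was low, with 0.580, 0.889 and 1.44 CPM in sgp53 lines 1, 2 and 3. In sgNTC lines 1, 2 and 3 it had 0.210, 0.0362 and 0.271 CPM. At an unadjusted p under 0.05 edgeR had 2 of the 5 proteases (29.0% of all genes). The most abundant was cathepsin L, Ctsl, at 688 ± 138 CPM in sgp53 and 680 ± 114 CPM in sgNTC (SD, n = 3 each). Mmp14, a membrane-bound metalloprotease, was at 127 ± 12.0 CPM in sgp53 and 106 ± 14.2 CPM in sgNTC (SD, n = 3 each).

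Of 10 tested receptor genes Itgb5 was called higher, beside 2.76% of all tested genes, with a list median of 0.10 on the log2 scale. This integrin subunit averaged 192 ± 10.8 CPM in sgp53 and 134 ± 9.25 CPM in sgNTC (SD, n = 3 each; log2 fold change 0.52, edgeR adjusted p = 0.0173). It missed the threshold with the block (edgeR adjusted p = 0.0595) and without sgNTC line 3, sgp53 line 1 or sgp53 line 2 (0.0779, 0.0736 and 0.0505), and without both libraries of line 1, 2 or 3 (0.109, 0.0983 and 0.131). The block called instead the fibronectin receptor subunit Itga5 (edgeR adjusted p = 0.0475, against 0.0642 without it), a gene named after its values were seen. DESeq2 called 2 of the 10 higher and 1 lower, beside 1195 and 1172 of all 13044 genes.

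Among 8 tested growth factor genes of the TGF-beta, BMP and activin kinds, Inhba was called higher and Tgfb1 lower, with a median log2 fold change of 0.81. DESeq2 called 3 of the 8 higher and 1 lower, beside 1195 and 1172 of all 13044 genes. Inhba, the activin A subunit, stood at 16.5, 11.4 and 24.5 CPM in sgp53 lines 1, 2 and 3, and at 4.24, 3.01 and 3.05 CPM in sgNTC lines 1, 2 and 3 (log2 fold change 2.34, SE 0.32, edgeR adjusted p = 0.0158). Tgfb1 was at 95.9, 103 and 107 CPM in sgp53 lines 1, 2 and 3, and at 209, 134 and 221 CPM in sgNTC lines 1, 2 and 3 (log2 fold change -0.88, SE 0.18, edgeR adjusted p = 0.0450). With the block Inhba passed (edgeR adjusted p = 0.0411) and Tgfb1 did not (0.0785); limma-voom did not call Tgfb1 either (adjusted p = 0.0564). Inhba missed the threshold without sgNTC line 2, sgNTC line 3 or sgp53 line 1 (edgeR adjusted p = 0.0523, 0.0757 and 0.0599), and Tgfb1 without any 1 library other than sgNTC line 2 (0.0799 to 0.140). Without both libraries of line 1, 2 or 3, Inhba was at 0.105, 0.0686 and 0.119, and Tgfb1 at 0.206, 0.0401 and 0.234 (edgeR adjusted p).

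**Figure D4:**
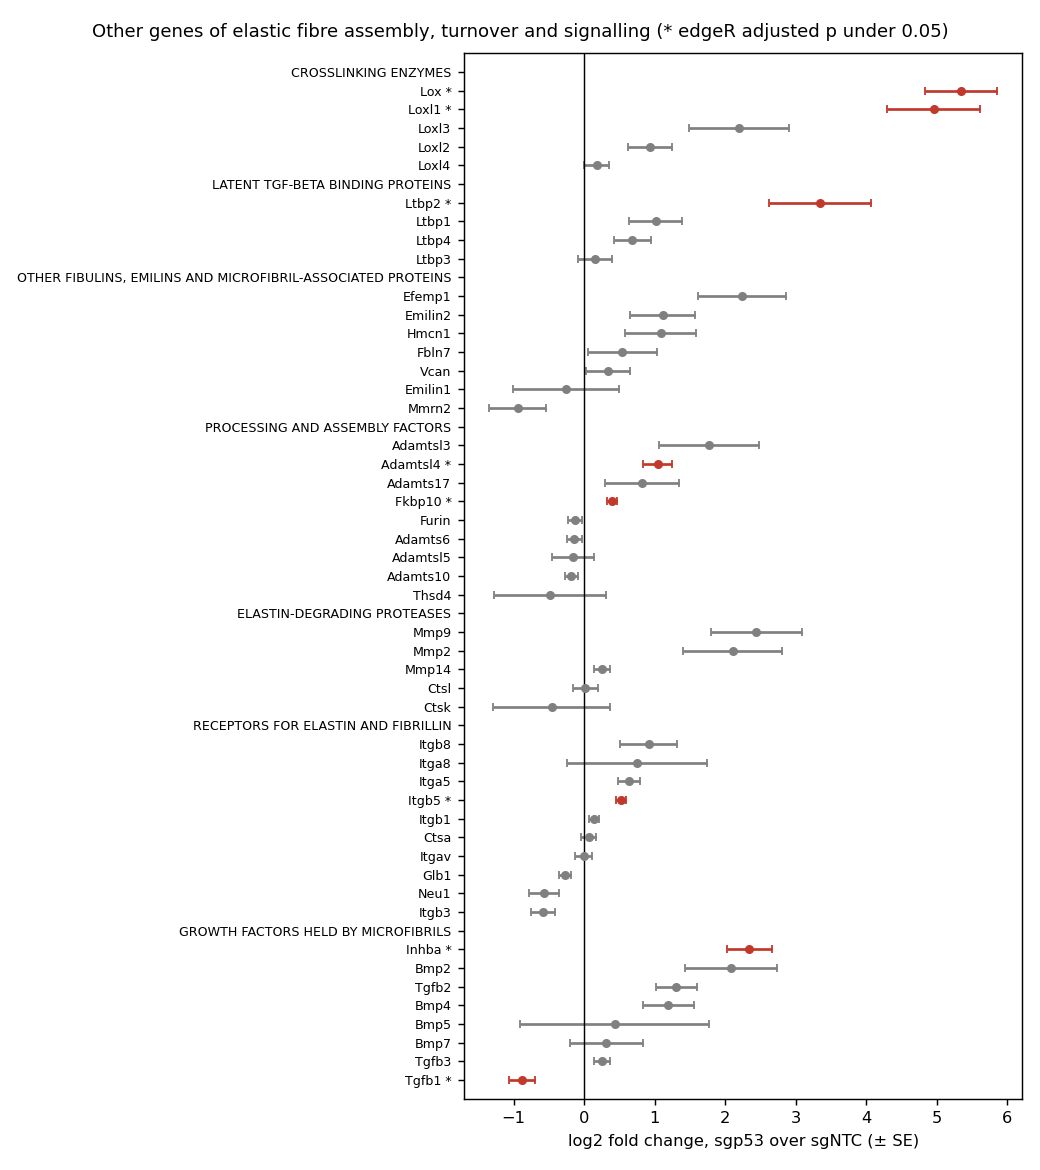
Log2 fold change of sgp53 over sgNTC with its SE for the 48 tested genes of the 7 lists, in red where the edgeR adjusted p was under 0.05. Lox and Loxl1 lie farthest to the right at 5.34 and 4.95, and Tgfb1 is the single red point left of 0.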

How the data were processed

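RNA was measured in 6 libraries, 3 sgp53 and 3 sgNTC, 1 of each per line. Per the labels' protocols, RNA with an integrity number above 8.0 was made into libraries from 1 µg with a stranded kit. The authors deposited raw read counts per gene symbol; mm10, STAR, DESeq2 and CASAVA 1.8 are listed, without roles, per the submitters' processing notes. How reads were counted (program, gene annotation, use of strand) is not given in the sources used here.

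From these counts, sgp53 was tested against sgNTC in R 4.3.3 with edgeR 4.0.16 (quasi-likelihood, TMM, filterByExpr on the groups, Benjamini-Hochberg over 13044 genes, call under 0.05). Each SE is the coefficient over the square root of F. CPM use the normalized totals, and within-line differences are of log2 CPM with a prior count of 2. Alternatives were DESeq2 1.42.0, limma-voom (limma 3.58.1), other scalings, no filter, left-out libraries or lines, and the line as a block. The tested line term comes from the blocked fit. Promoter sequences and coordinates are from RefSeq, GRCm38.p6; exon lengths are from GENCODE M21.

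Libraries of 1 number are from 1 cell line per the labels, so the numbers pair them. Across genes, the deviation of a line's sgp53 library from its group mean correlated with that of its sgNTC library at 0.089, 0.0018 and -0.027 for lines 1, 2 and 3. Replicate pairs differed by more than sampling noise (chi-square per degree of freedom 22.8 to 61.0). The p-values measure the spread between lines, which the labels do not tie to separate embryos. Lines 2 and 3 have a number in common in their descriptions. An exact permutation test of 3 against 3 cannot go below 0.1, so none is given. On simulated counts for this comparison, 200 of 13044 genes were changed. Of those that passed the count filter, 38% changed 1.5-fold, 70.0% changed 2-fold, 86% changed 4-fold and 95.9% changed 8-fold were recovered. Of 154 calls 10 were false. The simulated libraries were drawn independently with no line effect, and the real fit called 841 genes. These rates may therefore not hold for the real libraries.

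The genes and lists were chosen with earlier results of these data known. Named are the 9 genes, Trp53, up to 3 called genes of smallest adjusted p per list (or, with none called, the 2 of highest mean CPM), and the 3 tested genes nearest to Eln and to Fbn1; Rn45s, the markers, Itga5, Efemp1 and Mmp9 fall outside this rule.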

Additional observations from a re-analysis of the deposited data

Results flagged for a closer look

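The fibulin gene Fbln1 moved in opposite directions in different lines. Its log2 difference of sgp53 minus sgNTC was 0.51 in line 1, -0.56 in line 2 and 0.51 in line 3. Each line has 1 library per guide, so this difference between lines was not tested.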

How the results depend on the processing

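The number of all genes called depended strongly on the choices: 841 became 2367 with DESeq2 and 311 with the replicate block (273 in both), 133 to 700 without 1 library, and 19 to 64 without both libraries of 1 line. Of the 7 tested elastic fibre genes 2 were called, 3 with DESeq2, and 0 to 3 when libraries or lines were left out: 1 without sgNTC line 3 or without line 1, and 0 without line 2 or line 3. The replicate block changed no call among these 7. Fbn1 passed in 13 of 15 alternatives (log2 fold change 1.21 to 1.44) and Fbln5 in 11 of 15 (2.07 to 2.77). Fbn2 and Mfap2 passed in 0 of 15, with log2 fold changes of 0.84 to 1.93 and 1.11 to 2.43. Fbln2 and Efemp2 each passed in 1 of 15, with log2 fold changes of 0.84 to 3.34 and 0.28 to 0.60. Fbln1, at 0.14, ranged from -0.063 to 0.52 when libraries or lines were left out, and reversed without sgp53 line 3 (-0.03), sgNTC line 1 (-0.02), both libraries of line 1 (-0.01) or both of line 3 (-0.063). The cause of these changes was not tested. Without the count filter Eln had a log2 fold change of 1.18 and Mfap5 of 1.26 (edgeR adjusted p = 0.352 and 0.458). Levels were not called different between lines in any of the 7 genes under the alternative scaling or without the filter. Depth limits Eln and Mfap5, with 1 to 12 counts per library.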
